A study of Mus musculus with 6 samples.

Results

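The immediate early transcription factors are a set of 10 mouse genes, Fos, Fosb, Jun, Junb, Jund, Egr1, Atf3, Ier2, Nr4a1 and Myc, taken by name, with no threshold on their values. Of these, 9 were found by symbol in the table of 13226 genes counted by RNA-sequencing, and all 9 were among the 13113 genes tested. The expression of Fosb was not analysed here. Whole tibialis anterior (TA) muscles came from male C57BL/6 mice treated at 8 weeks of age, with 3 muscles injected with AAV6:Yap-shRNA and 3 control muscles, all taken 7 days after injection. AAV6, an adeno-associated virus of serotype 6, is used to bring genes into muscle fibres, and Yap-shRNA is a short hairpin RNA directed against the transcriptional co-activator Yap. For the control, the vector field of the labels gives AAV6:LacZ-shRNA whereas the sample titles speak of an empty vector, so the group is called control here. Both groups therefore carried an AAV6 vector, and no uninjected muscle was analysed here. The study paired control and treated muscles within animals, but the labels do not say that a library's number is its animal.

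Immediate early genes are switched on within minutes of a stimulus, from factors already present in the cell and without new protein synthesis, and their transcripts are usually short-lived. FOS, JUN and ATF proteins pair through leucine zippers to form the dimeric factor AP-1, and the make-up of the dimer sets which sites it binds and whether it activates or represses. In skeletal muscle these genes are known to respond to contraction, stretch, injury and changes in energy supply, and they are also sensitive to how tissue is collected. RNA from a whole muscle comes from fibres and from all other cells of the tissue, and in such bulk samples fewer cells of a type and less RNA per cell cannot be told apart.

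Promoter sequences help to show what these genes share. RefSeq promoter windows on GRCm38.p6 were matched by symbol for 7 of the 10 genes, Fosb included, while Egr1, Ier2 and Myc had no entry in the table used. The 250 bases before the RefSeq start are printed for Junb, Atf3 and Fos, the members with the highest ratios of Yap-shRNA to control muscles, and for Nr4a1, the member with the most counts and a ratio close to 1. They lie at chr8:84978749-84978998 (minus strand), chr1:191183334-191183583 (minus strand), chr12:85473640-85473889 (plus strand) and chr15:101266596-101266845 (plus strand). Each is written 5′ to 3′ in the direction of transcription. Capitals mark matches to TGACG or its other strand CGTCA, the core shared by sites of the CREB and ATF family, and to the TATA box TATAAA.
Junb: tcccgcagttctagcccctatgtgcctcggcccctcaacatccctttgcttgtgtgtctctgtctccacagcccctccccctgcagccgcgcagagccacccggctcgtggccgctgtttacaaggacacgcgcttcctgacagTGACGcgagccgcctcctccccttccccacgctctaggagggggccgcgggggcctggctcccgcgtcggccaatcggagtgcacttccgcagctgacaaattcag
Atf3: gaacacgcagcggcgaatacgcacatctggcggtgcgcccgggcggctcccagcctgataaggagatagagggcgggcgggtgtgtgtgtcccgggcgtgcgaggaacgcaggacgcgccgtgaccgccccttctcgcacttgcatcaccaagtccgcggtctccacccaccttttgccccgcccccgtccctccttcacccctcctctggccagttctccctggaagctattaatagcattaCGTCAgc
Fos: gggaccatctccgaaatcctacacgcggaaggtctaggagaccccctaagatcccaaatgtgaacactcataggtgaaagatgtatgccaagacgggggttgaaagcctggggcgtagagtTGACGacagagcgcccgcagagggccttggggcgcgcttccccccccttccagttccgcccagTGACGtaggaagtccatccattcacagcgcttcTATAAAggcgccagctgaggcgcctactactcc
Nr4a1: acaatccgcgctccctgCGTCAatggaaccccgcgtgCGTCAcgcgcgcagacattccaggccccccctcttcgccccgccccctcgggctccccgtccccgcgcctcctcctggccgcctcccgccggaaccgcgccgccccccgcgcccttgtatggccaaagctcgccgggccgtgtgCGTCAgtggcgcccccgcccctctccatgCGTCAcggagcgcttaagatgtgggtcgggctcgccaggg

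The core TGACG was found in 5 of the 7 windows (Fos, Fosb, Junb, Atf3 and Nr4a1), whereas 17.8% of the 32851 windows in the RefSeq table held it on either strand. These 5 windows were 58.4 to 74.4% G or C, and the share over all windows was not matched for base content. Nr4a1 held 4 copies and Fos held 2, at positions -129 to -125 and -66 to -62 relative to the start. Junb held a single copy at -106 to -102. The copy of Atf3 lay at -7 to -3, next to the start, and the nearest GENCODE transcript begins 7 bases from the RefSeq start of Atf3. Of the members' windows, only that of Fos had a TATA box in these letters, at -33 to -28, against 12.4% of all windows. The palindrome TGACGTCA, the full CREB site that contains the core, was in 0 of the 7 windows and 1.55% of all. TGACTCA or TGAGTCA, the AP-1 site itself, was in 0 of the 7 and 4.46% of all. The serum response element core, known as the CArG box, was in 0 of the 7 and 1.47% of all. GCGGGGGCG, a site read by EGR1, was in 2 of the 7 (Fosb and Nr4a1) and 2.57% of all. GGAATG, the core of the TEAD sites through which Yap acts, was in 1 of the 7 (Nr4a1, on the opposite strand) and 12.6% of all. These are matches of letters on either strand in a short window and show no binding. A count of 0 does not mean that a gene lacks the site, which could lie outside the window or differ in a letter. The RefSeq start of Jund lay 1210 bases from its GENCODE start, so its window may miss the promoter in use. For Atf3 and Nr4a1 the RefSeq starts, 191183333 and 101266846, lay inside the annotated genes. These genes begin further upstream, at 191218039 and 101254269, and the bases before those starts were not searched.

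The knockdown was checked first. Yap1, the gene targeted by the hairpin, stood at 71.2, 65.3 and 68.4 CPM (counts as a rate of the library total, after TMM scaling, which corrects for library composition) in controls 1, 2 and 3. Under Yap-shRNA the levels were 32.0, 23.9 and 39.5 CPM in the same order of numbers. All 3 Yap-shRNA muscles lay below all 3 controls, with a log2 fold change of -1.10 (95% interval -1.46 to -0.75). The adjusted p was 0.323 by the edgeR quasi-likelihood test (Benjamini-Hochberg adjustment) and 5.05e-07 by DESeq2, so the labels match the measured transcript while the call depended on the test. Libraries held 11987167 to 12710393 counts, with 15.2 to 17.6% on mitochondrial genes, and no library of a group was a repeat of another. Summed over 10 markers, muscle fibre genes took 138124 to 169566 CPM. Markers of macrophages (10 of 10 counted) summed to 91.0 to 218.9 CPM in control and 155.3 to 200.2 CPM in Yap-shRNA muscles, those of fibroblasts (7 of 7) to 1285 to 2587 and 1512 to 3040 CPM, and of neutrophil markers only Csf3r was counted, at 0.41 to 1.40 CPM. The 8 lymphocyte markers were not analysed here.

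No member passed the threshold of 0.05. For every one of the 9, the adjusted p was 1.00 by the edgeR quasi-likelihood test (Benjamini-Hochberg adjustment) over the 13113 genes, and the same test called 0 genes in all (0%). DESeq2 called 5 of 13108 genes (0.0381%) and the likelihood ratio test 5 of 13113 (0.0381%), none of them a member. At an unadjusted p under 0.05 by the edgeR quasi-likelihood test there were 2 of the 9 members, Junb and Atf3, both higher with Yap-shRNA. Of all genes 211 (1.61%) reached that level, 117 higher and 94 lower. The members were chosen with earlier results of these data known, so these shares give a scale and test no enrichment. The groups did not overlap for 1 member, Junb, which was higher in all 3 Yap-shRNA muscles, as were 333 of all genes (2.54%). In the other direction 0 members and 358 genes (2.73%) were separated. The fitted difference was above 0 for 8 of the 9 members, with a median log2 fold change of 0.26, beside a median of -0.0025 over all genes tested. With 3 muscles against 3, an exact permutation test cannot give a p below 0.10.

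**Figure D1:**
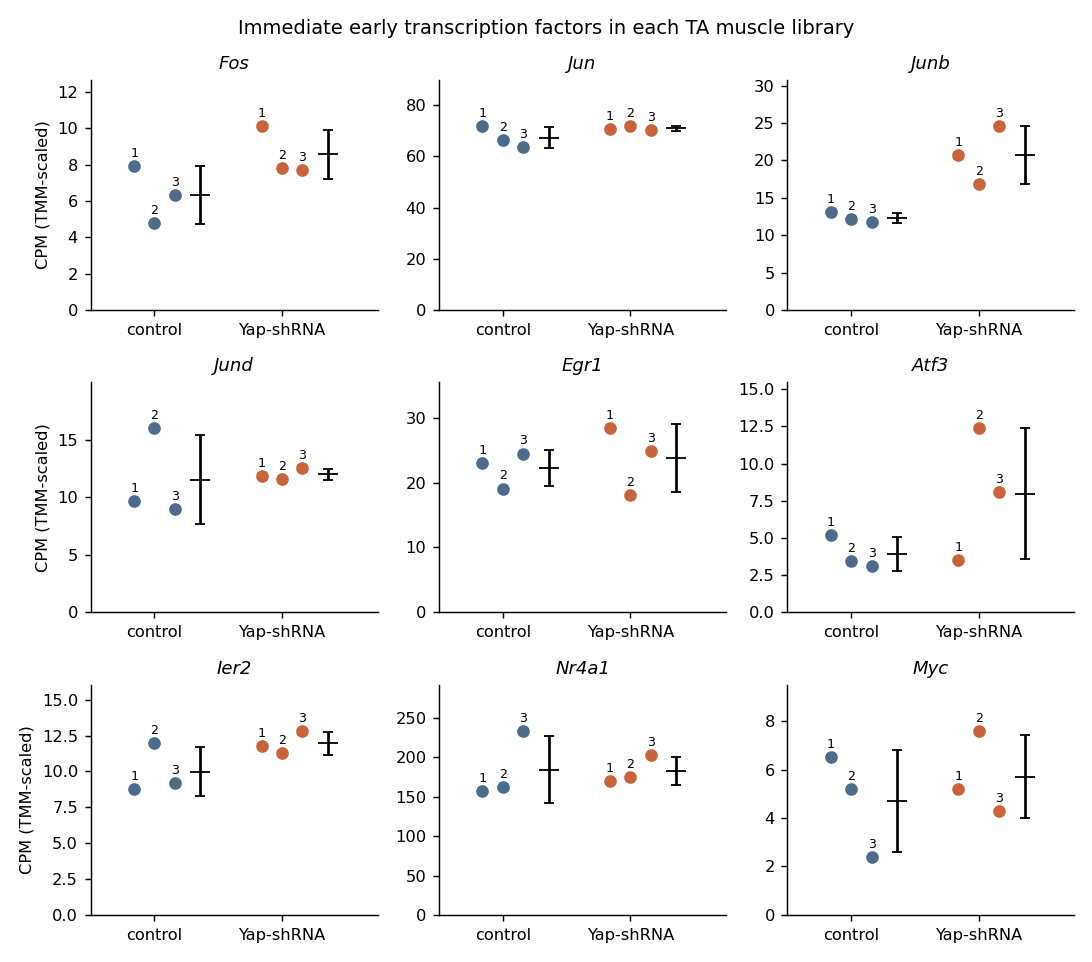
TMM-scaled CPM of the 9 members in each library (vertical axes from 0, one scale per gene), with numbered points for control and Yap-shRNA muscles and, beside them, the mean with its SD (n = 3). Only in the panel of Junb do all 3 Yap-shRNA points, from 16.8 to 24.6 CPM, lie above all 3 control points, from 11.7 to 13.1 CPM.

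The JUN proteins are the obligate partners in most AP-1 dimers. Junb, an AP-1 subunit that tempers the activity of JUN in many settings and is known for a role in keeping muscle mass, had 168, 146 and 143 counts in controls 1, 2 and 3, against 247, 219 and 309 in the Yap-shRNA libraries of those numbers. These were 13.1, 12.2 and 11.7 CPM against 20.7, 16.8 and 24.6 CPM. The control muscles were tightly grouped, and the lowest Yap-shRNA muscle, number 2, was still above the highest control. Junb averaged 12.3 ± 0.675 CPM in control and 20.7 ± 3.91 CPM in Yap-shRNA muscles (each SD, n = 3). Its log2 fold change was 0.75 (standard error 0.15), or 1.68-fold with a 95% interval of 1.32 to 2.13. Its unadjusted p of 0.000729 by the edgeR quasi-likelihood test was the 5th smallest of the 13113 genes. The exact permutation p was 0.10, the smallest available. Across the settings tried the adjusted p of Junb ran from 0.0924 (likelihood ratio test) to 1.00, and with each library left out in turn its log2 fold change stayed between 0.60 and 0.88. Junb (ENSMUSG00000052837) lies on chromosome 8 of GRCm38 at positions 84974484 to 84978718, on the minus strand, and 173 bases of its exons (7.52%) overlap exons of Prdx2 on the opposite strand. Prdx2, which encodes a peroxiredoxin, averaged 107.7 CPM with a log2 fold change of -0.10, and no strand setting of the counting is given in the sources used here, so reads in the shared bases cannot be assigned.

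Jun, the founding AP-1 subunit and a single-exon gene, differed little between the groups. Its counts were 922, 795 and 775 in the controls against 845, 937 and 880 under Yap-shRNA, or 71.7, 66.5 and 63.6 CPM against 70.9, 72.0 and 70.2 CPM. Control 1 lay among the Yap-shRNA muscles, while controls 2 and 3 were the lowest of the 6. The log2 fold change was 0.078 (standard error 0.090), with a fold between 0.917 and 1.21 by the 95% interval, so a change of the size seen for Junb lay outside its interval. Within groups Jun varied less than nearly all genes: the SD of its log2 CPM was 0.063, at the 3.69th percentile. Jun (ENSMUSG00000052684) lies on chromosome 4, minus strand, from 95049034 to 95052222, and 7.28% of its exon bases overlap Junos, an antisense transcript with a mean of 3.35 CPM. Jund, the JUN protein usually present in resting cells, was at 9.65, 16.0 and 8.95 CPM in control and 11.8, 11.6 and 12.5 CPM in Yap-shRNA muscles. Control 2 was the highest of the 6 libraries and the other controls the lowest. Its log2 fold change was 0.058 (standard error 0.21), and 52.6% of its exon bases overlap the antisense transcript Gm11175, so its counts are uncertain in the same way.

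FOS proteins cannot pair with each other and need a JUN partner. Fos, the best known immediate early gene, had few reads: 102, 57 and 77 counts in the controls against 121, 102 and 97 under Yap-shRNA. Scaled, these were 7.94, 4.77 and 6.32 CPM against 10.1, 7.84 and 7.74 CPM. Control 1 was slightly above Yap-shRNA 2 and 3, so the groups overlapped, while controls 2 and 3 were the lowest. The log2 fold change was 0.43 (standard error 0.21), or 1.35-fold with a 95% interval of 0.967 to 1.88, at an unadjusted p of 0.0726 by the edgeR quasi-likelihood test. The log2 fold change of Fos was 0.26 without control 2, 0.29 without Yap-shRNA 1 and 0.63 without control 1. Fos (ENSMUSG00000021250) lies on chromosome 12, plus strand, from 85473890 to 85477273, with 4 exons in its principal transcript, and no other annotated exon overlaps it.

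Atf3, a stress-induced ATF protein that often acts as a repressor, showed the highest ratio and the least even values. Its counts were 67, 41 and 38 in the controls against 42, 161 and 101 under Yap-shRNA, or 5.21, 3.43 and 3.12 CPM against 3.52, 12.4 and 8.05 CPM. Yap-shRNA 2 and 3 exceeded every control, whereas Yap-shRNA 1 lay among the controls, so the groups overlapped. The mean was 3.92 ± 1.13 CPM in control and 7.98 ± 4.42 CPM in Yap-shRNA muscles (SD, n = 3). The log2 fold change was 1.03 (standard error 0.40), or 2.04-fold with a 95% interval of 1.10 to 3.78. The unadjusted p was 0.0288 by the edgeR quasi-likelihood test and the exact permutation p 0.20. Without Yap-shRNA 2 the log2 fold change was 0.56, and without Yap-shRNA 1 it was 1.38. Atf3 (ENSMUSG00000026628) lies on chromosome 1, minus strand, from 191170296 to 191218039, with no overlapping exon of another gene. Its spread within groups was at the 97.6th percentile of all genes. Summed macrophage markers were 218.9, 135.4 and 91.0 CPM in controls 1, 2 and 3 against 155.3, 191.7 and 200.2 CPM in the Yap-shRNA libraries of those numbers. In each group the muscle with the least Atf3 also had the lowest sum of these markers. The same muscles had the lowest sums of fibroblast markers, 1285 CPM in control 3 and 1512 CPM in Yap-shRNA 1. The highest macrophage sum of all was in control 1, where Atf3 was at 5.21 CPM. Yap-shRNA 2 had the most Atf3, at 12.4 CPM, but a lower macrophage sum than Yap-shRNA 3. All 10 macrophage markers had a fitted log2 fold change above 0, as did 6424 of the 13113 genes tested. The median of these markers was 0.29, beside 0.20 for the 7 fibroblast markers, 6 of them above 0. The part of either list in the values of Atf3 was not tested. Of 4 tested adipocyte markers, 3 were above 0, with a median of 1.03, and these 3 were high in Yap-shRNA 3 alone. Adipoq, Plin1 and Cfd stood at 16.3, 10.8 and 50.1 CPM there. In the other libraries they stood at 1.59 to 4.75, 1.59 to 3.27 and 8.03 to 14.0 CPM. Fabp4, the adipocyte marker with the most counts, had a log2 fold change of -0.098. The part of adipocytes in the members' values was not tested.

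**Figure D2:**
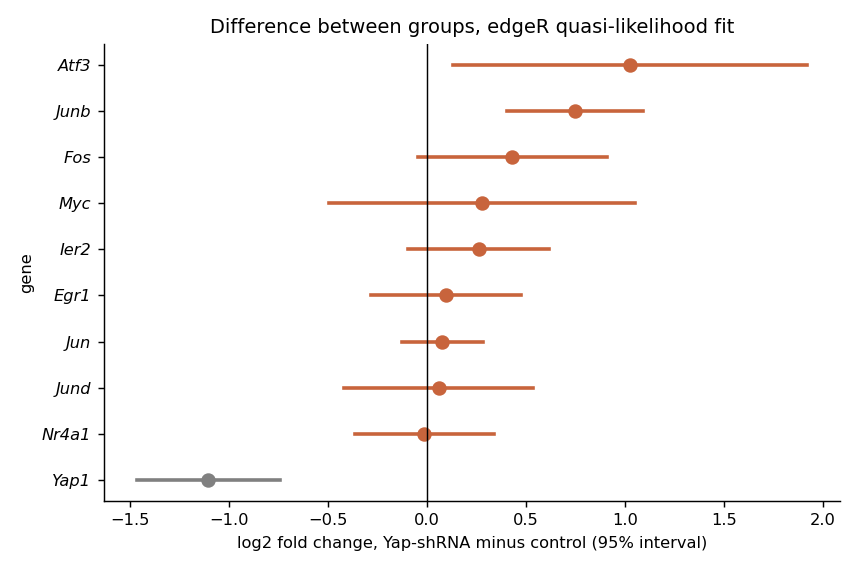
Log2 fold change of each member and of Yap1 (horizontal axis, Yap-shRNA minus control) from the edgeR quasi-likelihood fit, with lines for the 95% interval (n = 3 per group, not adjusted for the number of genes). The lines of Junb (0.40 to 1.09) and Atf3 (0.13 to 1.92) lie above 0, that of Yap1 lies below, and those of the other 7 members cross 0.

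The other members encode factors outside AP-1. Egr1, a zinc finger factor induced by growth factors and stretch, stood at 23.0, 19.1 and 24.5 CPM in control and 28.4, 18.1 and 24.8 CPM in Yap-shRNA muscles. Both the lowest and the highest value belonged to Yap-shRNA muscles, and the log2 fold change was 0.095 (standard error 0.17). Ier2, a small nuclear protein made early after growth stimulation, stood at 8.79, 12.0 and 9.19 CPM in control and 11.7, 11.3 and 12.8 CPM in Yap-shRNA muscles. Controls 1 and 3 were the lowest, but control 2 lay among the Yap-shRNA muscles, and the log2 fold change was 0.26 (standard error 0.16). Scaled by library totals alone, the groups of Ier2 did not overlap, which made 2 separated members. The share of all genes separated under that scaling is not given here.

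Nr4a1, an orphan nuclear receptor that in muscle is tied to the expression of glucose and lipid metabolism genes, had the most reads of the set, with 1949 to 2851 per library. It stood at 156.9, 163.0 and 234.0 CPM in control and 169.9, 175.2 and 203.0 CPM in Yap-shRNA muscles. Control 3 was the highest of all and controls 1 and 2 the lowest. The log2 fold change was -0.015 (standard error 0.16), with a fold between 0.776 and 1.26 by the 95% interval, and its sign changed with the setting. Nr4a1 (ENSMUSG00000023034) lies on chromosome 15, plus strand, from 101254269 to 101274795. Myc, the growth-promoting factor that dimerises with MAX, had 29 to 99 counts per library, at 6.54, 5.19 and 2.38 CPM in control and 5.20, 7.60 and 4.31 CPM in Yap-shRNA muscles. Control 3 was the lowest and Yap-shRNA 2 the highest. Its log2 fold change of 0.28 (standard error 0.34) had an interval from -0.50 to 1.05 and was -0.039 without control 3.

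Counting error alone, the error expected from the number of reads, was between 2.10% for Nr4a1 and 12.4% for Myc in a library of average depth. The fitted variation between muscles, edgeR's biological coefficient of variation, ran from 9.17% for Jun to 33.4% for Atf3 and exceeded the counting error for each of the 9 members. The members with fewest reads, Myc and Atf3, were also those with the most variation between muscles. Their within-group SDs of log2 CPM, 0.59 and 0.69, were at the 95.8th and 97.6th percentiles of all genes, while the median SD over all genes was 0.19. 

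Levels of the members were compared with each other per length, as CPM divided by kilobases of annotated exon. Nr4a1 was first at 52.6 ± 12.2 CPM per kb in control muscles (SD, n = 3), and Jun second at 21.1 ± 1.29. The 6 values of Nr4a1 lay above all 6 of Jun, and those of Jun above all 6 of Jund. Below them came Jund at 6.91 ± 2.32, Ier2 at 6.56 ± 1.13, Junb at 5.36 ± 0.293 and Egr1 at 4.95 ± 0.622 CPM per kb. Fos at 2.70 ± 0.673, Atf3 at 1.82 ± 0.524 and Myc at 1.73 ± 0.780 CPM per kb closed the order. From Jund downwards, the ranges of every 2 neighbours in this order overlapped, so the order of neighbours is not settled by 6 muscles. Genes further apart could be separated. All values of Jund, Ier2 and Junb, from 5.10 upwards, lay above all of Fos, up to 4.32, and of Myc, up to 2.80. The place of Jund is also uncertain because 52.6% of its exon bases overlap the antisense transcript Gm11175. In Yap-shRNA muscles Junb averaged 9.01 ± 1.70 CPM per kb and came next after Jun, above Ier2 at 7.86 ± 0.523 and Jund at 7.18 ± 0.287.

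**Figure D3:**
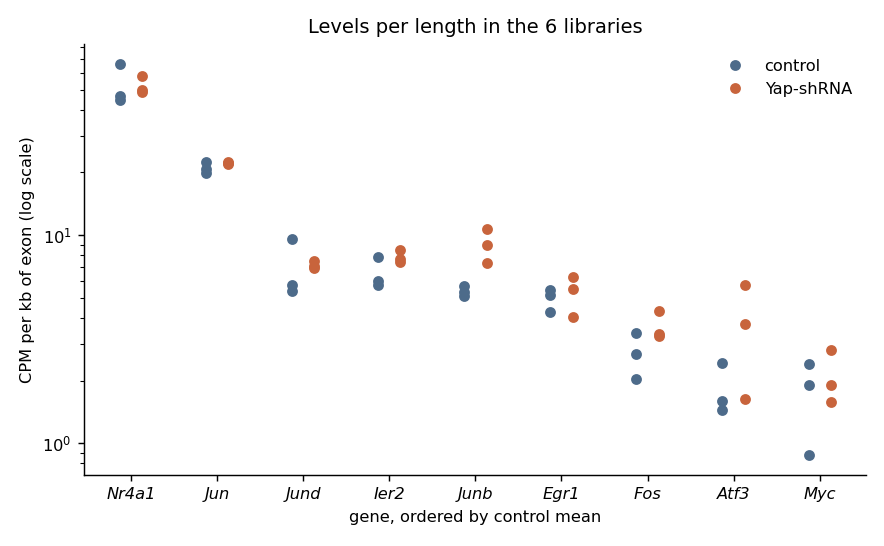
CPM per kilobase of annotated exon (log scale) for each member, ordered by the control mean, with one point per library. Nr4a1, from 44.7 to 66.7, and Jun, from 19.9 to 22.6, stand apart from the other 7 members, whose neighbours overlap.

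The members did not move as a block from muscle to muscle. Relative to each gene's mean over the 6 libraries, 8 of the 9 members were above their mean in Yap-shRNA 3 and 7 in each of Yap-shRNA 1 and 2. In control muscles 1, 2 and 3, it was 5, 3 and 2 members. Control 3 held the lowest value of 5 members, yet also the highest value of Nr4a1. Over the 36 pairs of members, Pearson's r of log2 CPM had a median of 0.21 across the 6 libraries and ranged from -0.86 for Nr4a1 with Myc to 0.85 for Jun with Myc, with 24 pairs above 0. Fos was at 0.69 with Jun, 0.66 with Junb and 0.58 with Egr1, and at -0.40 with Jund. Jund was at 0.81 with Ier2. These coefficients are descriptions over 6 libraries that include both groups.

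**Figure D4:**
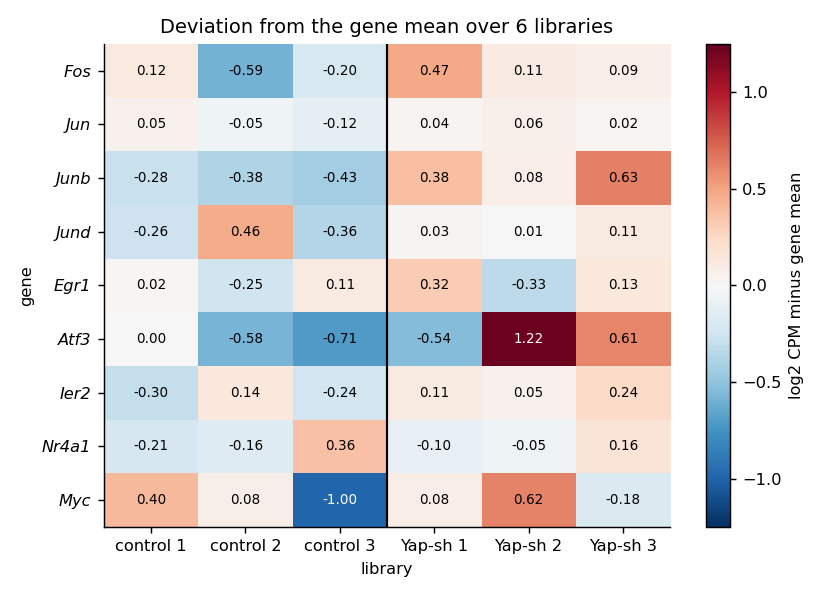
Log2 CPM of each member minus its mean over the 6 libraries (colour and printed value), with controls left and Yap-shRNA muscles right of the line. Positive values prevail on the right, but the highest value of Jund and of Nr4a1 is in a control muscle, and Atf3 runs from -0.71 in control 3 to 1.22 in Yap-shRNA 2.

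Among 12725 other genes with a mean of at least 1 CPM, 5 followed Fos most closely over the 6 libraries. They were Tnfrsf23 (Pearson's r 0.97), a decoy receptor for a death ligand, Epas1 (0.97), a hypoxia-regulated factor, Irgm1 (0.97), an interferon-induced GTPase, Ifih1 (0.97), a sensor of double-stranded RNA, and Ddx6 (0.97), an RNA helicase. As a scale for these values, 117 of the 12725 genes (0.919%) had an r above 0.9 with Fos. The 5 were picked as the highest coefficients over 6 libraries of both groups, and a shared regulation was not tested. Tnfrsf23 was at 5.83, 3.60 and 4.27 CPM in control and 7.55, 6.45 and 5.90 CPM in Yap-shRNA muscles. Its lowest and highest libraries were those of Fos. All 3 Yap-shRNA muscles lay above all 3 controls, as for 2.54% of all genes.

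The genes around the members in the same response were read from lists of partners, relatives, inhibitors and regulators, of which 114 genes in 7 lists were tested. None passed the threshold by the edgeR quasi-likelihood test (Benjamini-Hochberg adjustment) or by DESeq2. At an unadjusted p under 0.05 by the edgeR quasi-likelihood test there were 7 of the 114, all higher with Yap-shRNA, beside 1.61% of all genes. These lists too were chosen with earlier results of these data known, so such shares test no enrichment. The groups of 4 were separated higher and of 2 lower, beside 2.54% and 2.73% of all genes. The median log2 fold change was 0.043. Other AP-1 subunits and relatives (11 of 14 tested) had a median of 0.039, with 7 above 0. Fosl1, which encodes the FOS protein FRA1, was the one with an unadjusted p under 0.05 and stood at 1.56, 1.09 and 0.74 CPM in control and 1.51, 2.46 and 2.87 CPM in Yap-shRNA muscles (log2 fold change 1.01, standard error 0.36). Its Yap-shRNA 1 value lay among the controls, as for Atf3, and Fosl1 had only 9 to 36 counts per library. Maff, a small MAF protein, stood at 2.68 to 3.53 CPM in control and 3.61 to 4.47 CPM in Yap-shRNA muscles (0.36, standard error 0.21). By mean CPM, not divided by length here or in the later lists, the most abundant were Maf, Mafg and Atf7. Their log2 fold changes were -0.040, 0.039 and 0.049.

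Relatives of EGR1, NR4A1 and IER2 (8 of 10 tested) all had a fitted difference above 0 and a median of 0.17, and 0 had an unadjusted p under 0.05. Nr4a2, a sister receptor of Nr4a1, had a log2 fold change of 0.37 (standard error 0.36) and Nab2, a co-repressor of EGR factors, 0.30 (standard error 0.22). Nr4a2 had only 8 to 17 counts per library. Nab1, Ier3 and Ier5 were at 0.14, 0.080 and 0.060. In the MYC network (10 of 12 tested) 4 were above 0, the median was -0.013, and the log2 fold changes ran from -0.15 for Mga to 0.48 for Mycn. Mycn had only 10 to 19 counts per library. Mlxip, Mxd4 and Mxi1, the most abundant there, were at 0.036, -0.064 and -0.044.

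Of 20 other early transcription factors, 15 were above 0, with a median of 0.11. Klf4, a Krüppel-like factor induced by stress and by serum, stood at 10.2, 7.95 and 7.31 CPM in control and 10.2, 12.1 and 15.0 CPM in Yap-shRNA muscles, and the log2 fold change was 0.55 with a standard error of 0.19. Its Yap-shRNA 1 muscle was barely above control 1. Cebpd was at 0.40 (standard error 0.28), and the abundant Klf9, Bhlhe40 and Ets2 at 0.12, 0.089 and 0.081. Feedback inhibitors, which shut the response down by removing phosphates, destabilising messages or blocking receptors, had 27 of 27 tested, 16 above 0, a median of 0.050 and 5 with an unadjusted p under 0.05, all higher, beside 1.61% of all genes. Socs3, the brake on cytokine receptors, stood at 6.30, 4.10 and 4.19 CPM in control and 5.28, 10.1 and 12.3 CPM in Yap-shRNA muscles (0.92, standard error 0.31). As with Atf3, the higher values were in Yap-shRNA 2 and 3. Dusp5, a nuclear ERK phosphatase, was at 0.74 to 0.93 CPM in control and 1.31 to 1.59 CPM in Yap-shRNA muscles (0.70, standard error 0.30), without overlap. This gene had only 9 to 20 counts per library, and its counting error of 26.6% exceeded its fitted variation between muscles of 15.8%. The abundant members of this list, Tob1, Dusp1 and Dusp10, were at -0.051, -0.00091 and -0.17.

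Other early products (13 of 16 tested) had a median of 0.0061, with Hbegf, a ligand of the EGF receptor, at 0.40 (standard error 0.20) and Arc, a gene of active synapses, at -0.35 (standard error 0.26). Sgk1, Mcl1 and Homer1 were at -0.0063, 0.012 and 0.044. Cyr61 and Ctgf, early genes and textbook targets of Yap, were named after their values were seen and had log2 fold changes of 0.0061 (standard error 0.13) and -0.018 (standard error 0.31). Upstream regulators of these genes, the serum response, MEF2, CREB and kinase genes (25 of 25 tested), had a median of 0.011, with the lowest at -0.14 for Mef2c and the highest at 0.21 for Mapk7. Camk2a and Mef2d were at -0.012 and 0.054.

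Heat shock genes, often induced with immediate early genes when tissue is handled, had 8 of 8 above 0 and a median of 0.17. Hspb1 had an unadjusted p of 0.0464 by the edgeR quasi-likelihood test, with a log2 fold change of 0.25, and Hspa1b was at 0.49 (standard error 0.29). Summed, the 8 heat shock genes stood at 237.6 to 309.5 CPM in control and 273.8 to 330.1 CPM in Yap-shRNA muscles. Their part in the members' values was not tested. Muscle fibre genes had 1 of 10 above 0 and a median of -0.059.

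**Figure D5:**
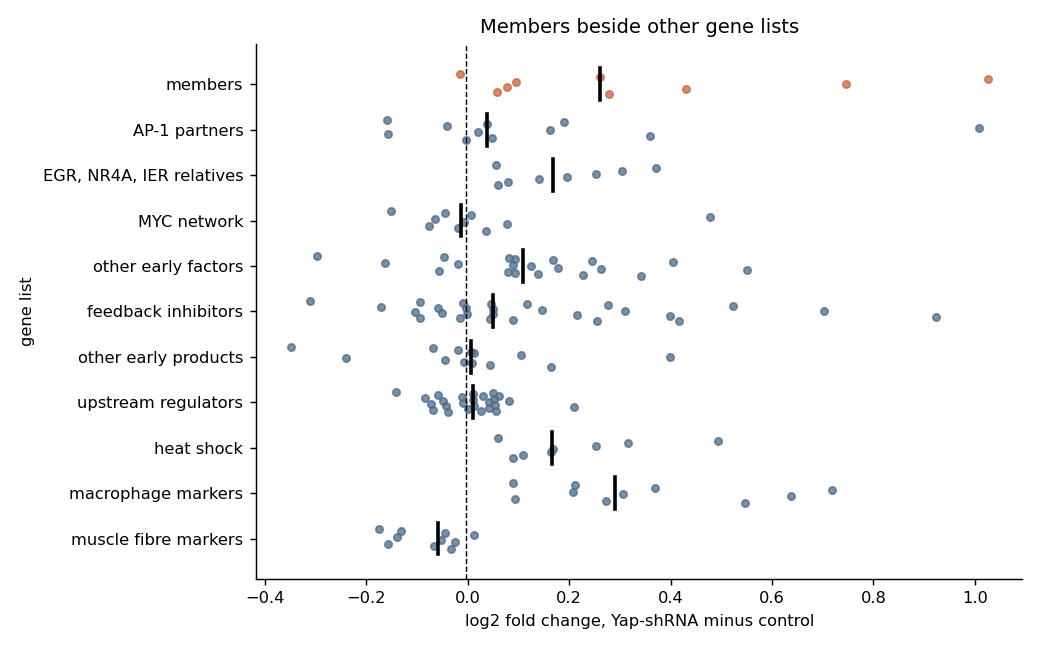
Log2 fold change (horizontal axis, Yap-shRNA minus control) of each tested gene in 11 lists, with a vertical bar for each list's median and a dashed line for the median of all 13113 genes. The members' median is 0.26, the macrophage markers' 0.29, and those of the 7 other early-response lists lie between -0.013 and 0.17.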

How the data were processed

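Polyadenylated RNA from 6 TA muscles was sequenced, and the authors deposited unnormalised counts of reads for each gene in a single table. The submitters' processing notes name bcl2fastq 2.20.0.422 and the build GRCm38, and the aligner, counter and annotation are not given in the sources used here. The table holds no gene with fewer than 60 counts over the 6 libraries, so low genes had been removed before deposit. All 6 columns were matched to samples by name. Per the labels the 3 muscles of a group came from 3 animals, and the number on a library is not stated to be its animal.

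Counts were scaled by TMM, filtered with filterByExpr (113 genes dropped) and tested with edgeR 4.0.16 in R 4.3.3 (quasi-likelihood test on group alone, two-sided, Benjamini-Hochberg adjustment over 13113 genes, threshold 0.05). Standard errors are the log2 fold change divided by the root of the F statistic, and log2 CPM used a prior count of 2. Intervals are 95%. Exact permutation tests ran over all 20 splits. The fit was tested on simulated data. Alternatives were DESeq2 1.42.0, the likelihood ratio test, limma-voom (limma 3.58.1), other scalings and count filters, a replicate block and leaving out each library. Exon lengths and overlaps came from GENCODE M21, which held 13199 of the 13226 gene identifiers, and promoters from RefSeq.

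The members and gene lists were chosen with earlier results of these data known. The genes named are the members, Yap1, of each other list those among the 3 most abundant and the 2 with the largest absolute log2 fold change, and the 5 genes with the highest Pearson's r with Fos among those with a mean of at least 1 CPM. The 3 most abundant were taken by mean CPM, not divided by exon length. Cyr61, Ctgf and Prdx2 were added after their values were seen.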

Additional observations from a re-analysis of the deposited data

How the results depend on the processing

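The members stayed at 0 past the threshold under all 14 alternatives. Of 126 combinations of a member and an alternative, 115 kept the direction of the log2 fold change and 11 reversed it. Nr4a1 reversed to 0.0046 with limma-voom, 0.0030 with library totals alone and 0.0041 with the replicate block. The other reversals came with a library left out, where the log2 fold change ran from -0.12 to 0.19 for Nr4a1 (above 0 without control 3, Yap-shRNA 1 or Yap-shRNA 2), from -0.095 to 0.36 for Jund (below 0 without control 1 or 3), from -0.051 to 0.26 for Egr1 (below 0 without control 2 or Yap-shRNA 1) and from -0.039 to 0.60 for Myc (below 0 without control 3). The number of separated members was 2 with library totals alone and 1 to 4 with a library left out, where fewer libraries are compared. The share of all genes separated in those settings is not given here, so these counts have no scale beside them. Over all genes, 5 passed with DESeq2, 5 with the likelihood ratio test and 0 to 1 with a library left out. Yap1 had a log2 fold change of -1.10 with DESeq2 (adjusted p 5.05e-07) and with the likelihood ratio test (adjusted p 1.72e-06), and -1.29 to -0.93 with a library left out. With the replicate block 0 genes passed, Yap1 was at -1.13 (adjusted p 0.0700), Junb at 0.73, Fos at 0.45 and Atf3 at 0.92, with unadjusted p of 0.000888, 0.0338 and 0.0512 in the edgeR quasi-likelihood fit. With limma-voom the unadjusted p of Atf3 was 0.0716, and with a library left out it ran from 0.00130 to 0.167. Deviations of same-numbered muscles had correlations of -0.062, 0.23 and -0.27 over genes, so the block rests on a shared number only. Only the muscles numbered 2 correlated best with their own number. The highest correlation, 0.34, was between control 1 and Yap-shRNA 3. The causes of these differences were not tested. Counting error was 10.4% for Fos, 11.5% for Atf3 and 12.4% for Myc, below their variation between muscles of 18.6%, 33.4% and 29.1%.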
